A study of Mus musculus with 87 samples.

Results

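Trophoblast regulators and keratins were followed in mouse embryonic stem (ES) cells that lacked subunits of Polycomb repressive complex 2 (PRC2). The set was chosen by name, with earlier results of these data known. It holds 8 of the 55450 Ensembl gene IDs in the count files: Cdx2 (ENSMUSG00000029646.3), Gata2 (ENSMUSG00000015053.14), Gata3 (ENSMUSG00000015619.10), Tfap2c (ENSMUSG00000028640.11), Elf5 (ENSMUSG00000027186.14), Krt7 (ENSMUSG00000023039.17), Krt8 (ENSMUSG00000049382.10) and Krt18 (ENSMUSG00000023043.7). The RNA counts came from 24 libraries of 8 genotypes with 3 libraries each, and deposited peak lists for the proteins SUZ12, JARID2 and PCL2 gave the positions of binding in chromatin. The core knockout was Suz12 KO. The widest accessory knockout was Pcl1-3 + Jarid2 + Aebp2 + Epop KO, called the full non-core knockout here. Partial accessory knockouts were Pcl1-3 + Jarid2 + Aebp2 KO and Pcl1-3 + Jarid2 KO, then Jarid2 + Aebp2 KO without loss of the Polycomb-like proteins, and Pcl1-3 KO with or without Epop (Pcl1-3 + Epop KO). All were set against wild type (WT). All cells, WT included, grew on gelatin in medium with 2i, a pair of kinase inhibitors that hold ES cells in a naive state. The strain label of the RNA samples ends in a number that goes up by 1 from genotype to genotype, while every ChIP sample, knockouts included, has the WT label 129B6F1; whether the strain of the RNA samples really differed is unresolved. Nothing in the labels tells whether libraries of 1 genotype were separate cultures, or how many clones they stand for, so p-values measure only a spread between libraries that may be technical.

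PRC2 places methyl groups on lysine 27 of histone H3, a mark of silenced developmental genes. SUZ12 is a core subunit that the complex needs to hold together; PCL1, PCL2 and PCL3 (Polycomb-like proteins), with EPOP, JARID2 and AEBP2, are accessory subunits that join it in different forms. The trophoblast is the outer lineage of the early embryo, which gives rise to much of the placenta; ES cells derive from the inner cell mass and rarely enter it. CDX2, GATA2, GATA3, TFAP2C (AP-2 gamma) and ELF5 are transcription factors of trophoblast cells, and keratins 7, 8 and 18 are the filament proteins of simple epithelia such as the trophoblast, in which keratins 7 and 8 are type II and keratin 18 is their type I partner.

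At the chromatin, a SUZ12 peak overlapped the gene extended by 1 kb on both sides at 5 of the 8 genes (Cdx2, Gata2, Gata3, Krt7 and Krt18), beside 24.2% of 21887 protein-coding genes. JARID2 peaks met the same rule at 3 of 8 (Cdx2, Gata2 and Gata3), beside 14.3% of all genes. PCL2 peaks met it at 7 of 8, every gene but Elf5, beside 42.0% of all genes. The 3 peak lists have no scores and no replicates, so these counts are descriptions without a test.

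The 3 transcription factor genes bound by all 3 proteins had wide peaks over annotated starts. A single SUZ12 peak of 13767 bp spanned most of Gata2 (mm10, chr6:88193891-88207032, plus strand), and one of 9368 bp (chr5:147298713-147308080) spanned Cdx2 (chr5:147300900-147307249, minus strand). Gata3 (chr2:9857078-9887953, minus strand) had 4 SUZ12 peaks, of which the one over an annotated start was 10341 bp wide (chr2:9875821-9886161). These peaks were wider than 99.8%, 99.3% and 99.4% of the 7796 SUZ12 peaks, in the order Gata2, Cdx2, Gata3.

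The keratin genes carried shorter peaks at their starts. Krt7 (chr15:101412403-101427806, plus strand), Krt8 (chr15:101996711-102004342, minus strand) and Krt18 (chr15:102028216-102032026, plus strand) lie on 1 chromosome. The SUZ12 peak over the Krt7 start was 990 bp wide, and the one over the Krt18 start was 1386 bp wide; their PCL2 peaks were 1387 bp at Krt7 and 746 bp at Krt18. Neither gene had a JARID2 peak within 1 kb, although one ended 1440 bp from Krt18, and 4 of 8 genes had a JARID2 peak when genes were extended by 5 kb. Krt8 had a PCL2 peak of 952 bp over its start and no SUZ12 peak nearer than 23224 bp; that nearest peak was the one over Krt18, its neighbour on chromosome 15.

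Tfap2c and Elf5 stood apart from the other factors. Tfap2c (chr2:172545678-172558622) had 3 PCL2 peaks of 544, 3342 and 597 bp inside the gene, and its nearest SUZ12 peak lay 168148 bp away. Elf5 (chr2:103412098-103450989, plus strand) had no peak of any of the 3 proteins, and its nearest SUZ12 peak, 114785 bp away, overlapped Abtb2.

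**Figure D1:**
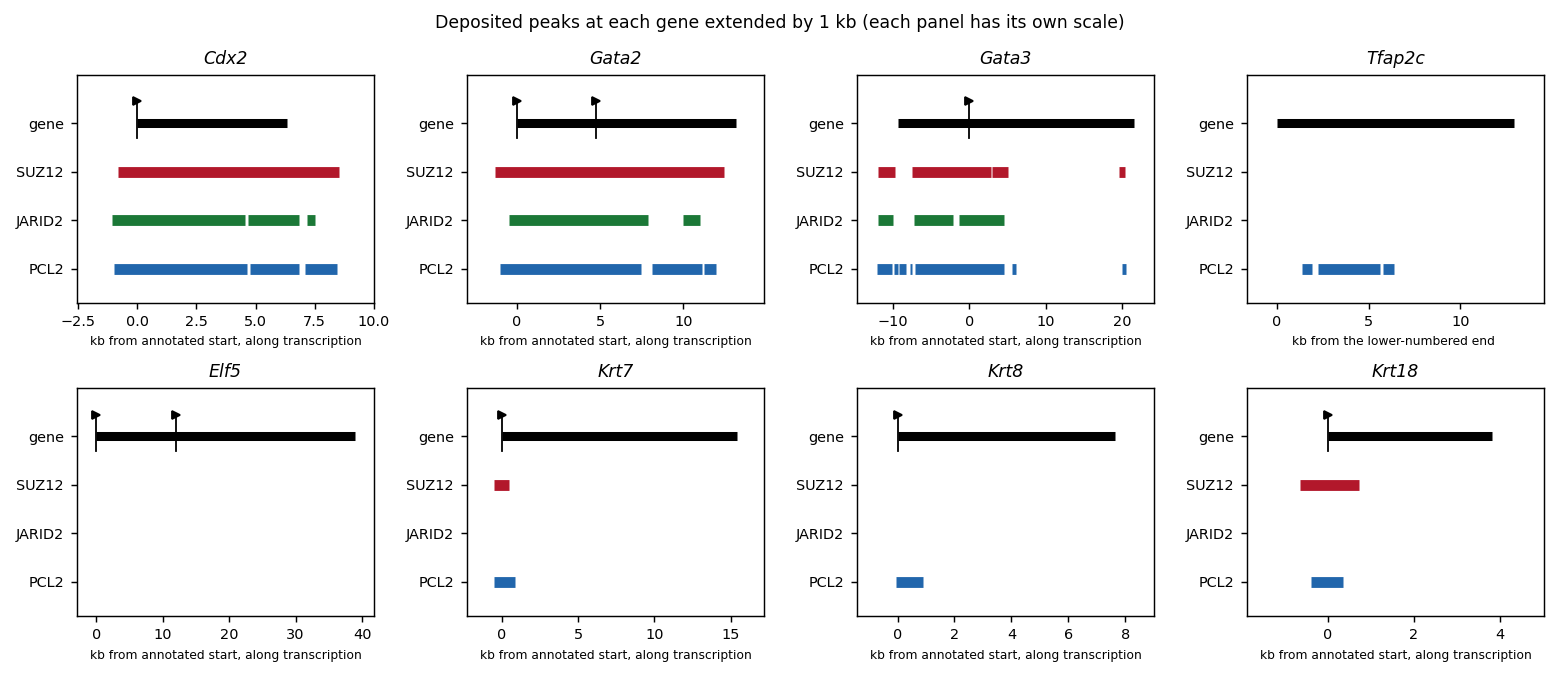
Each panel plots 1 gene as a black bar and the deposited SUZ12, JARID2 and PCL2 peaks as coloured bars, on a scale of its own. The axis is in kb along the direction of transcription from the first RefSeq promoter start (arrows) or, for Tfap2c, from its lower-numbered end. For Gata3 the only such start, chr2:9878600, lies inside the gene, which runs to 9887953, so peaks to its left can lie within the gene. Wide peaks of all 3 proteins lie over annotated starts of Cdx2, Gata2 and Gata3, peaks of 1387 bp or less sit at the starts of Krt7, Krt8 and Krt18, and Elf5 has none.

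PRC2 peaks in ES cells are known to lie over CpG-rich DNA, so the CpG pairs in the 250 bases before each RefSeq promoter start were counted for 7 of the 8 genes (assembly GRCm38.p6, the coordinates of mm10). For Gata3 the only such start lies inside the annotated gene. The motif CG reads the same on both strands. The 32851 promoters in the table held a median of 6 CpG; the 4379 under a SUZ12 peak held 18 and the other 28472 held 4. Gata2 has 2 annotated starts with 22 and 24 CpG, and Elf5 has a further start with 8. The stretches below were chosen to run from genes with peaks of all 3 proteins (Gata3, Cdx2), through SUZ12 and PCL2 only (Krt7, Krt18), to PCL2 alone (Krt8) and no peak (the first start of Elf5); each is written 5′ to 3′ on the strand of the gene, in lower case, with CG in capitals.
Gata3: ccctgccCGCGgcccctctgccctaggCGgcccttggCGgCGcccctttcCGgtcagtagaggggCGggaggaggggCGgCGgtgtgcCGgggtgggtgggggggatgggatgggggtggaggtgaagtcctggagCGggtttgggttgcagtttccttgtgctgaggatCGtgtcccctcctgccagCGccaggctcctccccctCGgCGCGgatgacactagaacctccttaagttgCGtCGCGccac
Cdx2: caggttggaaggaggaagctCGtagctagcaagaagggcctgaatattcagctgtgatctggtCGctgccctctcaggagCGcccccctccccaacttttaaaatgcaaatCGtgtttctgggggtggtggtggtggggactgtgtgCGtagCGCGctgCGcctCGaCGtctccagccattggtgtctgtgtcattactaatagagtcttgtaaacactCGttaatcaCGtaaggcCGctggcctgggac
Krt7: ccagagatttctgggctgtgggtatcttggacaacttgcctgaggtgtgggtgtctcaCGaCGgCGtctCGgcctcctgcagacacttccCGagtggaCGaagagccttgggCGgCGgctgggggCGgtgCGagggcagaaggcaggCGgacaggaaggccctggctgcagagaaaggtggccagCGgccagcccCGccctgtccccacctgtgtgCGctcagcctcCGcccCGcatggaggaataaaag
Krt18: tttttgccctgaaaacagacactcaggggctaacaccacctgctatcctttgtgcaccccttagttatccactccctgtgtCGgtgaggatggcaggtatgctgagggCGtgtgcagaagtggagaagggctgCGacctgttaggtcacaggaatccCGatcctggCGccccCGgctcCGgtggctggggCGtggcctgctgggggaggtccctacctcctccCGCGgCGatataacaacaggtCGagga
Krt8: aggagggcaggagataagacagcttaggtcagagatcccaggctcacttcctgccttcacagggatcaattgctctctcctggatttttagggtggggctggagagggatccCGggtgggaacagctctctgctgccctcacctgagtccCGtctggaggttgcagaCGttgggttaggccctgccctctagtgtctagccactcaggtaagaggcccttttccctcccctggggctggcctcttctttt
Elf5: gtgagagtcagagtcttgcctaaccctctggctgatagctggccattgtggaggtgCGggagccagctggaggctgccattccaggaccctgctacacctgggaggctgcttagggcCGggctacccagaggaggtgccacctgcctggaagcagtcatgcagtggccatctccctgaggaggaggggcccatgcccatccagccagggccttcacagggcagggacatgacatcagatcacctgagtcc
The Gata3 stretch (chr2:9878601-9878850, minus strand) held 19 CpG, and 19.7% of all promoters held as many or more. Cdx2 (chr5:147307250-147307499, minus strand) held 13, a number reached by 31.5% of promoters. For Krt7 (chr15:101412153-101412402, plus strand) the count was 16, reached by 25.4%. In Krt18 (chr15:102027966-102028215, plus strand) it was 12, reached by 33.5%. Krt8 (chr15:102004343-102004592, minus strand) held 3, fewer than most promoters, since 71.0% reached that number. The first Elf5 stretch (chr2:103411848-103412097, plus strand) held 2, a number reached by 81.2%. All 5 genes with a SUZ12 peak thus had 12 or more CpG in this window; a CpG count is a description and not a site.

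In the RNA, levels are given as CPM, the read count divided by the library's effective size after TMM scaling, which compares a gene between libraries and not 1 gene with another. Total counts per library ran from 10148155 to 28442061. Tests are edgeR quasi-likelihood tests with Benjamini-Hochberg adjustment over 14650 IDs, and a gene was said to change at an adjusted p under 0.05. Each ± on the log2 scale is an SE computed from the change and the F statistic of the test. Its spread is estimated over all 24 libraries and not from the compared libraries alone. Of the 8 genes, 7 were tested; Elf5 was too low. Cdx2 and Gata3 passed the filter on low counts through the genotypes in which they were high, so that they differed somewhere was a condition of their being tested. These are bulk samples, in which more cells that express a gene and more RNA per cell cannot be told apart. The 7 comparisons with WT share its 3 libraries.

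**Figure D2:**
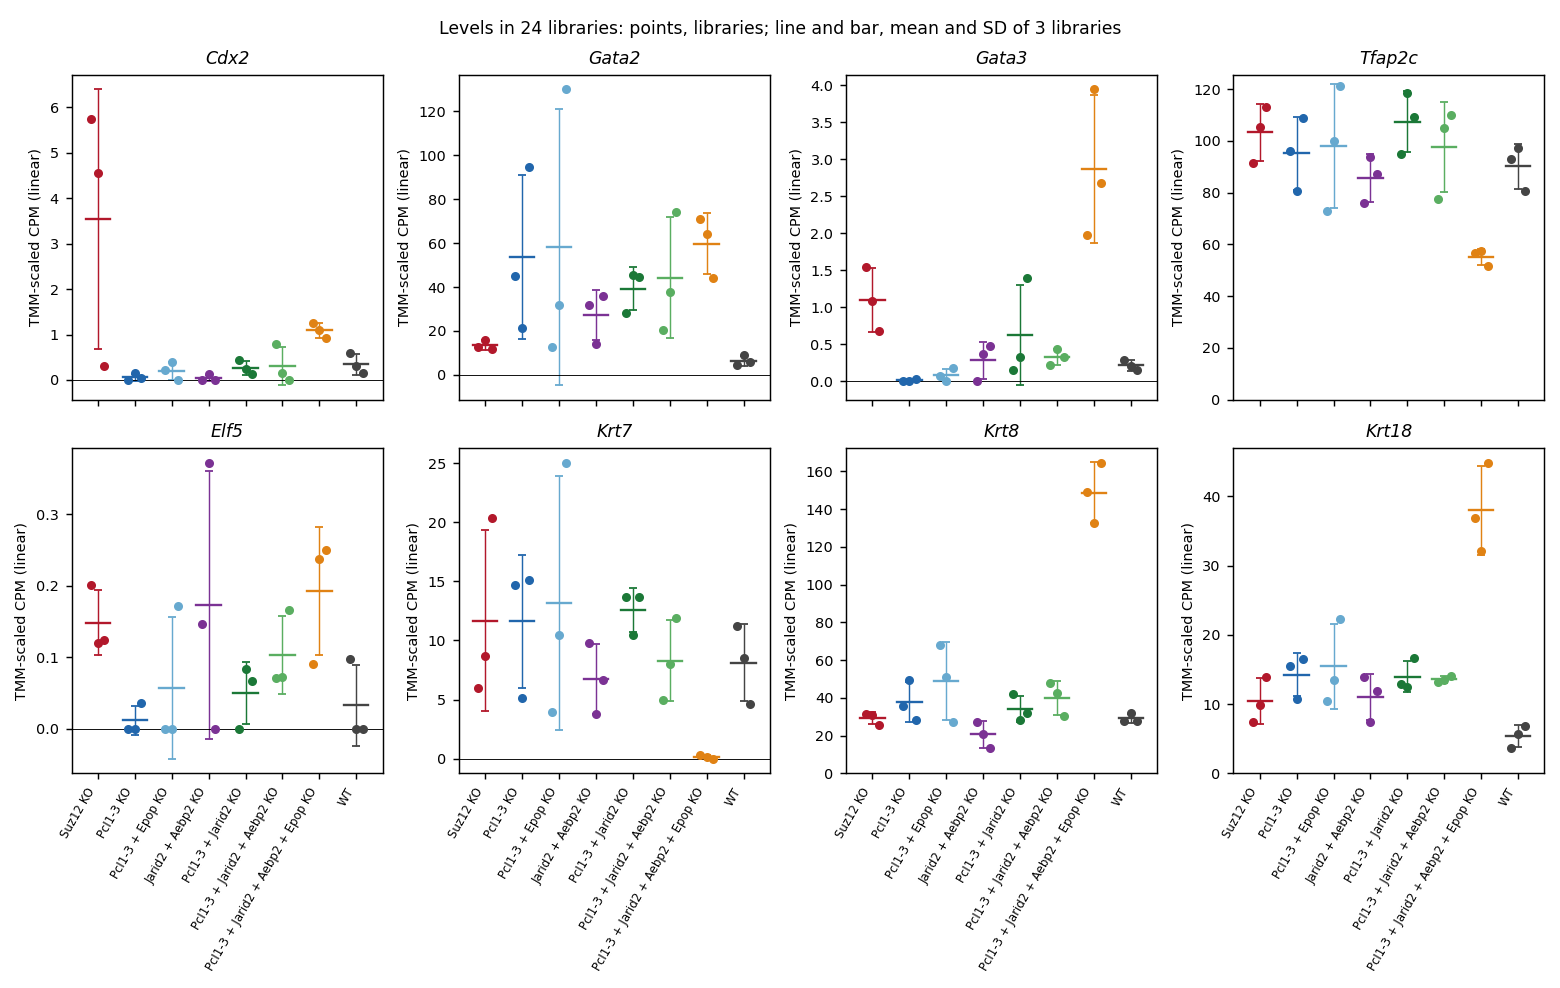
Each panel plots the scaled CPM of 1 gene (linear axis) in the 24 libraries by genotype, with points for libraries, a horizontal line for the mean and a bar for the SD of 3 libraries. Cdx2 is highest in 2 of 3 Suz12 KO libraries, Krt8 and Krt18 are highest and Krt7 and Tfap2c lowest in the full non-core knockout, and Gata2 and Krt18 are lowest in WT.

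Cdx2, the homeobox factor that sets up and maintains the trophoblast, passed the test against WT in 1 of 7 knockouts, Suz12 KO, where it rose. Its level was 5.75, 4.56 and 0.309 CPM (86, 76 and 5 reads) in Suz12 KO replicates 1, 2 and 3, against 0.584, 0.297 and 0.146 CPM (6, 3 and 2 reads) in WT. Replicates 1 and 2 stood far above WT, while replicate 3 lay within the WT range, so the groups overlapped. The log2 fold change was 3.39 ± 0.87 (SE, n = 3 each; edgeR adjusted p = 0.00376). Without any 1 of the 6 libraries it stayed past the threshold; the change moved most without WT replicate 1, to 4.02. In a fit of these 2 genotypes alone Cdx2 failed the filter on low counts and was not tested.

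In the full non-core knockout, Cdx2 was at 1.26, 1.10 and 0.918 CPM (14, 14 and 11 reads), above every WT library, but the difference did not pass the test (log2 fold change 1.71 ± 0.96, edgeR adjusted p = 0.181). It passed in 3 of 11 alternatives: a fit of these 2 genotypes alone (adjusted p = 0.0251), no filter on low counts (0.0237) and the replicate number as a block (0.0454); the highest adjusted p was 0.403. In the other 5 knockouts no library exceeded 0.784 CPM, and 5 of all 24 libraries had no Cdx2 read. For Cdx2 the full non-core knockout did not differ from Suz12 KO by the test (log2 fold change -1.69 ± 0.73, edgeR adjusted p = 0.0662). With the replicate number as a block, in a comparison in which the numbers paired the libraries, that difference did pass (-1.40, adjusted p = 0.0207); alternatives for it ran from 0.000742 to 0.263 in adjusted p. Against Pcl1-3 + Jarid2 + Aebp2 KO, the full non-core knockout gave for Cdx2 1.74 ± 0.93 (edgeR adjusted p = 0.248) without the block and 1.97 (adjusted p = 0.0422) with it, in a range of 0.0332 to 0.459 over the alternatives.

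Gata2, a zinc finger factor of trophoblast giant cells and of blood progenitors, was above WT in every library of every knockout. The lowest knockout library, Suz12 KO replicate 3, had 11.9 CPM, against 4.68, 8.92 and 5.75 CPM in WT. Gata2 passed the test in 5 of the 7 knockouts.
Libraries of the full non-core knockout had 70.8, 64.3 and 44.3 CPM, against 4.68 to 8.92 CPM in WT. The log2 fold change was 3.22 ± 0.69 (edgeR adjusted p = 0.00123), and it remained past the threshold under all 11 alternatives, with a highest adjusted p of 0.0104.
Suz12 KO, by contrast, had 12.6, 15.97 and 11.9 CPM. Although these did not overlap with WT, the log2 fold change of 1.07 ± 0.69 did not pass (edgeR adjusted p = 0.229). It passed in a fit of these 2 genotypes alone (adjusted p = 0.00376) and without the filter on low counts (4.43e-08), and alternatives reached 0.404. Without the filter the log2 fold change was nearly the same, at 1.08. The far smaller adjusted p-values of that fit are therefore not read as stronger evidence. Set against each other, the full non-core knockout was above Suz12 KO for Gata2 with no overlap (log2 fold change 2.14 ± 0.63, edgeR adjusted p = 0.00930).

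The accessory knockouts varied widely in Gata2 among their own libraries. Pcl1-3 KO had 44.8, 21.3 and 94.5 CPM, a log2 fold change over WT of 3.07 ± 0.69 (edgeR adjusted p = 0.00782). Pcl1-3 + Epop KO had 12.9, 32.0 and 130 CPM, with 3.18 ± 0.69 (edgeR adjusted p = 0.00692). Replicate 3 was the highest library in both genotypes, and its removal ended both calls: the change became 2.36 (adjusted p = 0.0768) in Pcl1-3 KO and 1.80 (0.142) in Pcl1-3 + Epop KO.
Pcl1-3 + Jarid2 KO, at 27.996, 45.3 and 44.4 CPM, was more even and gave 2.61 ± 0.68 (edgeR adjusted p = 0.0113). Pcl1-3 + Jarid2 + Aebp2 KO had 20.6, 37.6 and 74.4 CPM and gave 2.78 ± 0.69 (edgeR adjusted p = 0.00829), which fell short without its replicate 3 (2.18, adjusted p = 0.0631). Jarid2 + Aebp2 KO had 31.6, 14.2 and 35.7 CPM and did not pass (2.08 ± 0.68, edgeR adjusted p = 0.0864; alternatives from 1.87e-28 without the filter to 0.325).
WT replicate 1, the lowest WT library for Gata2, also mattered: without it the calls in Pcl1-3 KO (0.0584), Pcl1-3 + Epop KO (0.0505) and Pcl1-3 + Jarid2 KO (0.0603) fell short. A fit of Pcl1-3 + Epop KO and WT alone gave an adjusted p of 0.119.

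Gata3, a zinc finger factor that acts beside CDX2 in the trophoblast, rose in the full non-core knockout and in Suz12 KO. It was at 1.98, 3.94 and 2.67 CPM (22, 50 and 32 reads) in the full non-core knockout, against 0.292, 0.198 and 0.146 CPM (3, 2 and 2 reads) in WT. All 3 knockout libraries were above all WT libraries, with a log2 fold change of 3.74 ± 0.72 (edgeR adjusted p = 0.000410).
In Suz12 KO it was at 1.54, 1.08 and 0.680 CPM (23, 18 and 11 reads), also above every WT library. There the log2 fold change was 2.35 ± 0.76 (edgeR adjusted p = 0.0180). This smaller change ended without Suz12 KO replicate 1 (0.0618), WT replicate 2 (0.0515) or WT replicate 3 (0.0768), within a range of 0.00114 to 0.0768 over the alternatives.
Set against Suz12 KO, the full non-core knockout was higher for Gata3 by 1.38 ± 0.54 on the log2 scale (edgeR adjusted p = 0.0428). That difference was close to the threshold and was lost without Suz12 KO replicates 2 (0.103) or 3 (0.148), without full non-core replicates 2 (0.187) or 3 (0.0677), and with DESeq2 (0.104).

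In the other genotypes Gata3 had few reads. Pcl1-3 KO had 0, 0 and 1 reads and Pcl1-3 + Epop KO had 1, 0 and 2. Pcl1-3 + Jarid2 KO had 2, 4 and 21 reads, so most came from replicate 3. Set against Pcl1-3 KO it was higher (edgeR adjusted p = 0.0132), from 27 reads in Pcl1-3 + Jarid2 KO and 1 in Pcl1-3 KO, a ratio of 35.2 with an exact 95% interval of 5.80 to 1440 that covers counting error only. The call was lost without Pcl1-3 + Jarid2 KO replicate 3 (0.208), Pcl1-3 KO replicate 1 (0.0515) or Pcl1-3 KO replicate 3 (0.0576). None of the 5 remaining comparisons of knockouts with WT passed for Gata3.

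Tfap2c, which ES cells and germ cells also use, fell in the full non-core knockout. Its level there was 56.7, 57.4 and 51.7 CPM, against 92.9, 97.2 and 80.5 CPM in WT. No full non-core library reached the level of any library of the other 7 genotypes, the lowest of which was Pcl1-3 + Epop KO replicate 1 at 73.0 CPM. The log2 fold change was -0.71 ± 0.16 (1.63-fold lower, edgeR adjusted p = 0.00224). Suz12 KO had 91.5, 106 and 113 CPM and did not pass against WT (0.20 ± 0.16, edgeR adjusted p = 0.351). Set against Suz12 KO, Tfap2c was lower too in the full non-core knockout, by a log2 fold change of -0.90 ± 0.16 (edgeR adjusted p = 0.000136).

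Elf5, which holds the trophoblast stem cell state and is silenced by DNA methylation in ES cells, was barely counted. It had 32 reads over all 24 libraries, at most 6 in a library (Jarid2 + Aebp2 KO replicate 2), and 8 libraries had none. Summed over 3 libraries, the full non-core knockout had 7 reads, Suz12 KO had 7 and Jarid2 + Aebp2 KO had 8, against 1 in WT. The ratio to WT was 6.67 (exact 95% interval 0.856 to 300) in the full non-core knockout and 4.99 (0.641 to 225) in Suz12 KO, and both intervals, which cover counting error only and not the spread between libraries, include 1. With so few reads no difference from WT could be shown.

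Among the keratins, the full non-core knockout separated the 3 genes: Krt8 and Krt18 rose and Krt7 nearly vanished. In the full non-core knockout Krt8 was at 149, 132 and 164 CPM, against 27.8, 31.9 and 27.7 CPM in WT. The log2 fold change was 2.35 ± 0.28 (5.10-fold, edgeR adjusted p = 2.17e-06). The highest library of any other genotype was Pcl1-3 + Epop KO replicate 1, at 68.2 CPM.
Suz12 KO had 31.3, 30.8 and 25.4 CPM of Krt8 and overlapped with WT (log2 fold change 0.00 ± 0.28, edgeR adjusted p = 0.996). With Suz12 KO as the comparison, Krt8 was higher in the full non-core knockout by 2.35 ± 0.28 (edgeR adjusted p = 1.21e-06). Among the other knockouts Krt8 passed the test against WT in none; means were 20.6 CPM in Jarid2 + Aebp2 KO, 34.1 in Pcl1-3 + Jarid2 KO, 37.8 in Pcl1-3 KO, 40.1 in Pcl1-3 + Jarid2 + Aebp2 KO and 48.8 in Pcl1-3 + Epop KO, against 29.1 in WT.

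Krt18, the type I partner of keratin 8, had its lowest libraries in WT. Every knockout library had 7.43 CPM or more, against 3.60, 5.75 and 6.77 CPM in WT. Libraries of the full non-core knockout had 36.9, 32.1 and 44.9 CPM, and the log2 fold change over WT was 2.81 ± 0.30 (edgeR adjusted p = 4.74e-07).
Suz12 KO had 7.49, 9.90 and 14.0 CPM and a log2 fold change of 0.95 ± 0.30 (edgeR adjusted p = 0.0150). This call ended without Suz12 KO replicate 3 (0.67, adjusted p = 0.109) or WT replicate 1 (0.75, adjusted p = 0.0750), in a range down to 0.000156 over the alternatives. Over Suz12 KO, Krt18 in the full non-core knockout was higher by 1.86 ± 0.28 (edgeR adjusted p = 1.96e-05).

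The accessory knockouts gave Krt18 a step of similar size. Pcl1-3 KO had 15.5, 10.8 and 16.5 CPM (log2 fold change over WT 1.40 ± 0.30, edgeR adjusted p = 0.00524). Pcl1-3 + Epop KO had 10.5, 13.5 and 22.4 CPM (1.51 ± 0.30, edgeR adjusted p = 0.00327; 0.0936 in a fit with WT alone). Pcl1-3 + Jarid2 KO had 12.9, 12.5 and 16.6 CPM (1.37 ± 0.30, edgeR adjusted p = 0.00289).
These 3 genotypes overlapped with one another and not with WT. Pcl1-3 + Jarid2 + Aebp2 KO had 13.2, 13.5 and 14.1 CPM (1.33 ± 0.30, edgeR adjusted p = 0.00403). Jarid2 + Aebp2 KO had 13.9, 7.43 and 11.8 CPM and fell just short (1.02 ± 0.30, edgeR adjusted p = 0.0538; alternatives from 0.000197 to 0.248). Krt18 therefore rose in 6 of 7 knockouts by the test.

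Krt7, the other type II keratin, went the opposite way to Krt8. Libraries of the full non-core knockout had 3, 2 and 0 reads (0.269, 0.158 and 0 CPM), against 115, 86 and 64 reads (11.2, 8.53 and 4.66 CPM) in WT. Every other library of the 24 had at least 52 reads, so the 3 full non-core libraries stood alone. The log2 fold change was -5.76 ± 0.96 (edgeR adjusted p = 0.000106), and it was -6.51 without full non-core replicate 1.
Suz12 KO had 6.02, 8.64 and 20.4 CPM and overlapped with WT (0.54 ± 0.56, edgeR adjusted p = 0.474). Against Suz12 KO, the full non-core knockout was lower for Krt7 by a log2 fold change of -6.30 ± 0.93 (edgeR adjusted p = 1.76e-05); this became -7.05 without full non-core replicate 1 and -5.62 without Suz12 KO replicate 3. In the other 5 knockouts Krt7 did not pass the test against WT, at means of 6.74 to 13.2 CPM against 8.13 CPM in WT.

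**Figure D3:**
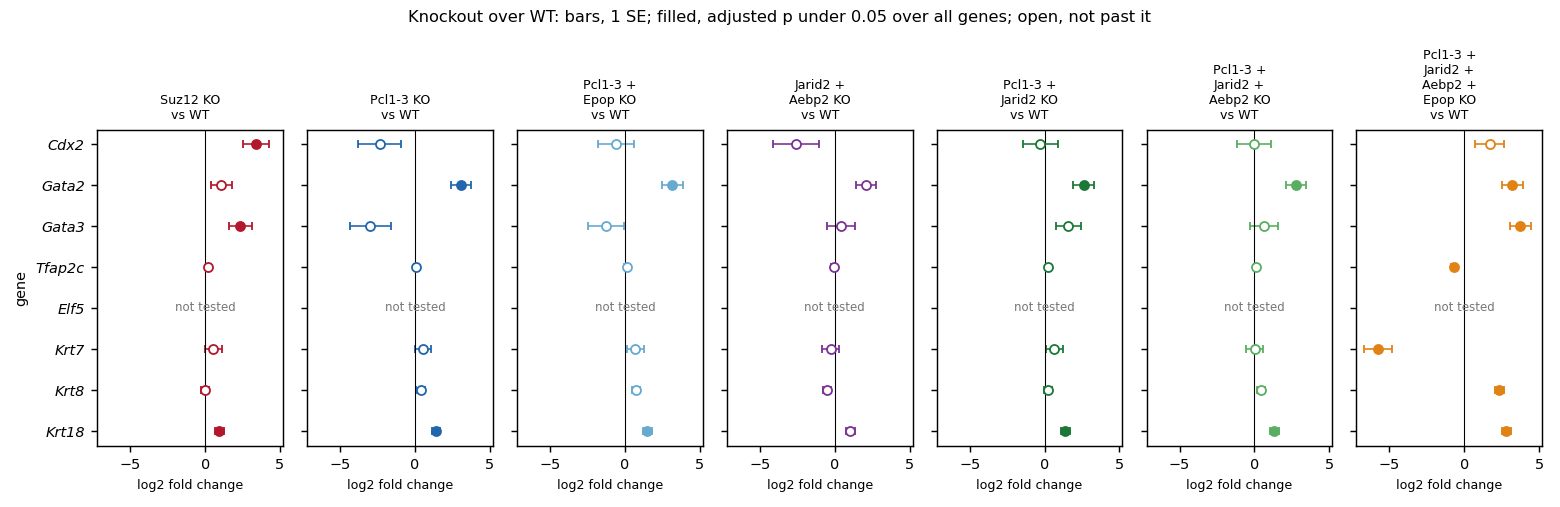
Log2 fold change of each knockout over WT (x axis) for the 8 genes (y axis), 1 panel per knockout; bars are 1 SE, filled points have an adjusted p under 0.05 over all IDs tested, and Elf5 was not tested. The full non-core knockout has 6 filled points, of which Tfap2c (-0.71) and Krt7 (-5.76) lie below 0, and Gata2 and Krt18 are filled together in the Pcl1-3 combinations.

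The number of these genes that changed in a comparison is given beside the share of all tested IDs that did. As the genes were chosen with earlier results of these data known, such counts are descriptions and no test of the set. Shares of IDs cover tested IDs only, while counts out of 8 genes include Elf5, which was not tested. In the full non-core knockout against WT, 4 genes rose and 2 fell of 7 tested, where 17.1% of IDs rose and 15.8% fell (32.9% in all). Libraries of the 2 genotypes did not overlap for 7 of the 8 genes, beside 47.2% of IDs. In Suz12 KO against WT, 3 rose and none fell, where 20.7% of IDs rose and 18.3% fell (39.1% in all). Libraries did not overlap for 4 of 8 genes, beside 56.8% of IDs: Gata2, Gata3, Krt18 and the untested Elf5. Elf5 had 3, 2 and 2 reads in Suz12 KO against 1, 0 and 0 in WT. The 3 of 7 called is near the background share of 39.1%. Cdx2 and Gata3 were tested only through genotypes in which they were high. Counts of calls that include them, here and between knockouts, were therefore partly set in advance.
Gata2 and Krt18 rose, and no member fell, in each of the 4 combinations of Pcl1-3 loss short of the full set. In Pcl1-3 KO, 4.35% of IDs rose and 4.35% fell (8.70% in all), and 4 of 8 genes did not overlap with WT, beside 32.5% of IDs. In Pcl1-3 + Epop KO, 3.94% rose and 3.67% fell (7.61%), and 2 of 8 did not overlap, beside 25.6%.
In Pcl1-3 + Jarid2 KO, 9.26% of IDs rose and 7.91% fell (17.2%), and 2 of 8 genes did not overlap, beside 43.6%. With AEBP2 also lost, in Pcl1-3 + Jarid2 + Aebp2 KO, 7.95% of IDs rose and 7.08% fell (15.0%), and 2 of 8 did not overlap, beside 36.9%. The genes that did not overlap were Gata2 and Krt18 in the last 3 of these genotypes. In Pcl1-3 KO Cdx2 and Gata3 joined them at lower values than WT, but with few reads. Cdx2 had 0, 2 and 1 reads there against 6, 3 and 2 in WT, and the nearest libraries were at 0.1449 and 0.1456 CPM. Gata3 had 0, 0 and 1 reads against 3, 2 and 2.
In Jarid2 + Aebp2 KO none of the 7 passed, where 2.26% of IDs rose and 2.13% fell (4.39%). In edgeR 2 genes had an unadjusted p under 0.05, and DESeq2 called 2. Libraries did not overlap with WT for 4 of 8 genes, beside 30.4% of IDs. Gata2 and Krt18 were higher than WT there, and Krt8 and Cdx2 lower, with 0, 2 and 0 reads for Cdx2.

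Between knockouts, 2 genotypes whose knockout labels differ in EPOP loss alone differed in 5 of the 7 genes. Whether their strain or clones also differed is unresolved. In the full non-core knockout against Pcl1-3 + Jarid2 + Aebp2 KO, 3 were higher and 2 lower, where 5.79% of IDs were higher and 5.45% lower (11.2% in all); 6 of 8 did not overlap, beside 26.5%. Gata3 (log2 fold change 3.11 ± 0.64, edgeR adjusted p = 0.00267), Krt8 (1.89 ± 0.27, 9.19e-05) and Krt18 (1.48 ± 0.28, 0.00104) were higher. Tfap2c (-0.82 ± 0.16, 0.00180) and Krt7 (-5.79 ± 0.95, 0.000323) were lower. For Krt7 the change was -6.52 without full non-core replicate 1. Gata2 did not pass (0.44 ± 0.60, edgeR adjusted p = 0.696).
Pcl1-3 + Epop KO and Pcl1-3 KO were not tested against each other. Krt8 averaged 48.8 ± 20.7 CPM in Pcl1-3 + Epop KO and 37.8 ± 10.6 CPM in Pcl1-3 KO (SD, n = 3 each), with overlapping libraries. For Krt7 the means were 13.2 ± 10.8 CPM in Pcl1-3 + Epop KO and 11.6 ± 5.63 CPM in Pcl1-3 KO, again overlapping.

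The full non-core knockout and Suz12 KO differed in 6 of 7 genes, 4 higher and 2 lower, where 20.8% of IDs were higher and 22.2% lower (43.0% in all); 6 of 8 did not overlap, beside 51.5%. In Pcl1-3 + Jarid2 KO against Pcl1-3 KO, Gata3 alone of the 7 passed the test, a call that rested on few reads. There 3.71% of IDs were higher and 2.56% lower (6.27%), and 1 of 8 did not overlap, beside 26.0%. With AEBP2 also lost, in Pcl1-3 + Jarid2 + Aebp2 KO against Pcl1-3 + Jarid2 KO, none of the 7 passed, where 0.341% of IDs were higher and 0.560% lower (0.901%). In edgeR 0 had an unadjusted p under 0.05 and DESeq2 called 0; 0 of 8 did not overlap, beside 16.3%.
In Pcl1-3 + Jarid2 + Aebp2 KO against Jarid2 + Aebp2 KO, Krt8 alone passed, where 6.87% of IDs were higher and 6.83% lower (13.7%). There 1 of 8 did not overlap, beside 30.9%. Krt8 was at 47.6, 42.5 and 30.1 CPM in Pcl1-3 + Jarid2 + Aebp2 KO, against 27.3, 21.1 and 13.4 CPM in Jarid2 + Aebp2 KO. That difference (log2 fold change 0.96 ± 0.28, edgeR adjusted p = 0.0241) ended without Jarid2 + Aebp2 KO replicates 2 (0.0560) or 3 (0.146), without Pcl1-3 + Jarid2 + Aebp2 KO replicates 1 (0.0985) or 2 (0.0719), and in a fit of the 2 genotypes alone (0.0519).
Whether the effect of losing PCL1-3 differed with and without JARID2 and AEBP2 was tested as an interaction, and none of the 7 passed, where 3.71% of IDs were higher and 3.65% lower (7.36%). In edgeR 3 had an unadjusted p under 0.05 (Cdx2, Gata2 and Krt18), and DESeq2 called 0. With the replicate number as a block, edgeR called Krt18 (adjusted p = 0.0176) and Cdx2 (adjusted p = 0.0463, on few reads). Without the block, the interaction for Gata2 was -2.37 ± 0.91 on the log2 scale (edgeR adjusted p = 0.112). It was -1.10 ± 0.41 for Krt18 (0.0999) and 4.92 ± 2.08 for Cdx2 (0.150).

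Some pairs of these genes varied together across libraries. Krt7 and Tfap2c were both lowest in the 3 full non-core libraries; over the other 21 libraries their log2 CPM had a Pearson r of 0.73, and of 0.69 over all 24 when each library was taken relative to its genotype mean. Krt7 and Krt8 lay in opposite corners in the full non-core knockout, while r over the other 21 libraries was -0.18, and relative to genotype means over all 24 it was -0.60. Gata2 and Krt18 had an r of 0.87 over those 21 libraries and 0.64 relative to genotype means. These values are descriptions: libraries of 1 genotype may share cultures or clones, and libraries of the same replicate number deviated together in several comparisons.

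**Figure D4:**
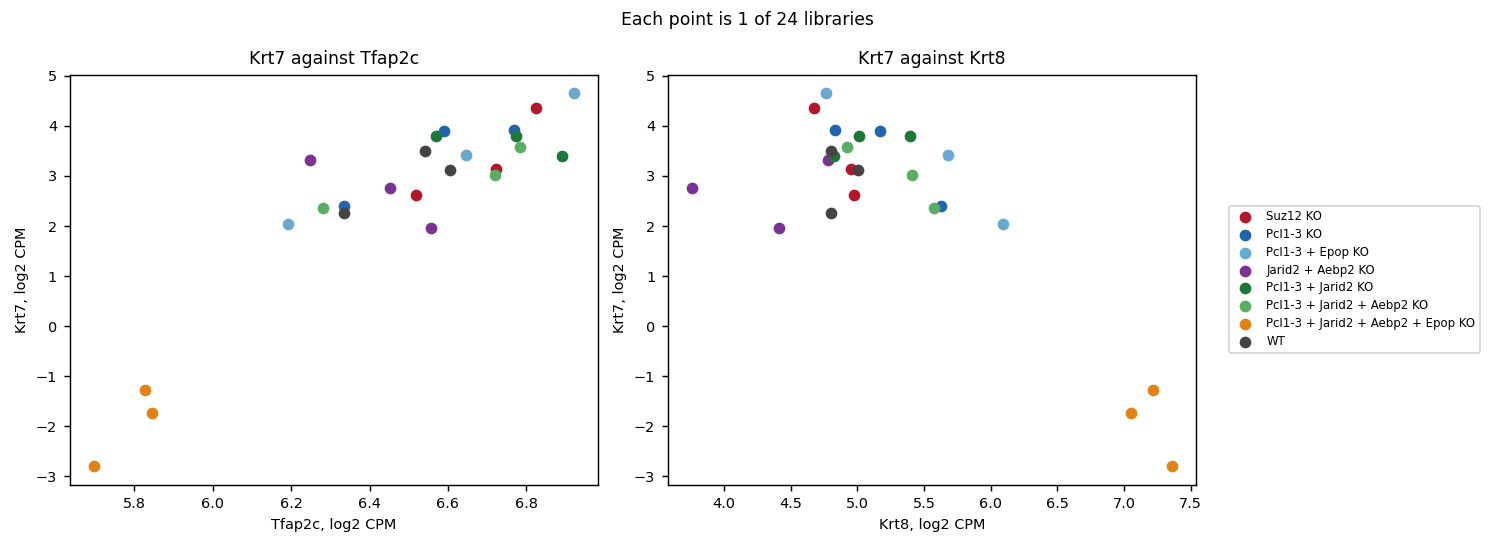
Krt7 (y axis) is plotted against Tfap2c (left) and Krt8 (right), in log2 CPM with a prior count of 2, and each of the 24 points is a library coloured by genotype. The 3 full non-core libraries stand apart at low Krt7, with low Tfap2c and high Krt8, and without them r is 0.73 on the left and -0.18 on the right.

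Over all 24 libraries, the ID whose log2 CPM was most like that of Krt8 was ENSMUSG00000032202.11 (Pearson r = 0.90), and the ID most like Cdx2 was ENSMUSG00000022711.16 (0.89). Neither the files nor the reference table give these IDs a symbol. Among 14649 other IDs, Krt18 ranked 321 in likeness to Krt8 (0.66), and Krt7 ranked 14606 (-0.82), close to the end of the list. Gata3 ranked 1002 in likeness to Cdx2 (0.61). Relative to genotype means, r was -0.02 for Cdx2 and Gata3 and -0.45 for Krt8 and Krt18. The 24 points include the 3 full non-core libraries, which stand apart for several of these genes. For Cdx2, Suz12 KO replicates 1 and 2 stand apart (log2 CPM 2.56 and 2.23), and 5 libraries had no read.

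The relatives of these genes were looked up in the peak lists alone. Of 19 further trophoblast stem and lineage regulators, 13 had a SUZ12 peak, 12 a JARID2 peak and 13 a PCL2 peak by the 1 kb rule, beside 24.2%, 14.3% and 42.0% of all genes in that order; they included Eomes and Hand1, factors of early trophoblast and mesoderm, and Ascl2, needed for the spongiotrophoblast. Of 14 products of trophoblast cells, 5 had a SUZ12 peak, among them Cdh3, which encodes placental cadherin.
SUZ12 peaks were no less common at neural (8 of 8), endoderm (8 of 10) and mesoderm markers (7 of 9, Eomes and Hand1 again among them). They lay at 3 of 10 fibroblast and feeder cell markers and at 2 of 10 pluripotency genes.
Of 18 genes of epithelial junctions, 12 had a SUZ12 peak, such as Dsp (desmoplakin) and Cldn6 (a claudin of early epithelia). Of 13 other keratins of simple and stratified epithelia, none had a SUZ12 or JARID2 peak and 5 had a PCL2 peak, Krt19 and Krt14 among them. Over all 53 genes with a Krt symbol, 7 had a SUZ12 peak, Krt7 and Krt18 included, 2 a JARID2 peak and 23 a PCL2 peak.
In the whole families of the factors, members of the set included, SUZ12 peaks lay at 5 of 6 Gata genes (Gata2 and Gata3 among them). They lay at 4 of 5 AP-2 genes, with Tfap2c the exception, and at 2 of 3 Cdx genes (Cdx2 among them). RNA levels of these relatives, of the deleted subunits and of ES cell markers are not analysed here, since the files do not pair Ensembl IDs with symbols.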

How the data were processed

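Per the labels' protocols, total RNA was made into TruSeq libraries and ChIP libraries came from cross-linked, sonicated chromatin. The deposited RNA files hold counts of reads for each Ensembl ID, as whole numbers, and, for SUZ12, JARID2 and PCL2, the authors deposited lists of peak positions. Per the submitters' processing notes, RNA reads went through STAR and HTSeq and ChIP reads through Trimmomatic and Bowtie2, both with mm10 and no tool versions. The sources used here do not give strandedness, annotation release, peak caller, threshold, pooling or the cells behind each peak list, so overlapping and antisense genes are uncertain. The signal of the 63 ChIP samples is not analysed here.

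Of 55450 IDs, 24056 had no count and 14650 passed filterByExpr in edgeR 4.0.16 (R 4.3.3). They were scaled by TMM and fitted together over 24 libraries with 1 mean per genotype; 13 comparisons used the quasi-likelihood test, and calls were made on p-values adjusted by Benjamini-Hochberg, below 0.05. The scripts were tested on simulated data. Alternatives were DESeq2 1.42.0, RLE size factors, no low-count filter, a fit of the compared genotypes alone, a replicate block and leaving out each library; for peaks, 5 kb, gene ends only, peaks of at least 1 kb and a 200 bp overlap. Same-numbered libraries deviated together (every correlation over 0.1) in 6 of 12 comparisons between 2 genotypes, namely Suz12 KO against WT and those between knockouts; the labels name no shared batch. Gene positions and promoters are RefSeq (GRCm38.p6). Members and gene lists were chosen with earlier results of these data known. The text names every member, list genes as examples, and the ID most like Cdx2 and Krt8; Abtb2 was named after its position was seen. The planned RNA counts of lists and targeted genes could not be run because IDs and symbols are not paired.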

Additional observations from a re-analysis of the deposited data

How the results depend on the processing

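Of 30 calls over the 13 comparisons, 20 held under every alternative that gave a value, 10 were lost under at least 1, and none changed direction; of 61 pairs of gene and comparison not called, 14 were called under at least 1. Counts of genes called that moved by over 1.5 times were these. Fitting only the compared genotypes gave 0 in Pcl1-3 + Epop KO against WT, 1 in Jarid2 + Aebp2 KO against WT, 0 in Pcl1-3 + Jarid2 KO against Pcl1-3 KO (Gata3 then failed the filter) and 0 in Pcl1-3 + Jarid2 + Aebp2 KO against Jarid2 + Aebp2 KO. Without the low-count filter they were 3, 2 and 2 in the last 3 of these and 3 in the interaction. DESeq2 gave 2 in Jarid2 + Aebp2 KO against WT. The replicate block gave 1 there (Krt18, adjusted p = 0.00475) and 2 in the interaction (Cdx2, 0.0463, and Krt18, 0.0176); it also called Krt8 in Pcl1-3 + Epop KO (0.0400) and Cdx2 in the full non-core knockout (0.0454), both against WT, and changed no other call beyond those given with the results. In comparisons of knockouts with WT other than Suz12 KO, same-numbered libraries deviated together in part. Replicates 1 correlated there at 0.241 to 0.289, while not every other pair reached 0.1. Smaller moves without the filter were to 4 in Suz12 KO, 3 in Pcl1-3 + Epop KO, 3 in Pcl1-3 + Jarid2 + Aebp2 KO and 7 in the full non-core knockout against WT, and to 7 and 6 for the full non-core knockout against Suz12 KO and Pcl1-3 + Jarid2 + Aebp2 KO; DESeq2 gave 5 against Suz12 KO. The fit of Suz12 KO and WT alone also gave 3, with Gata2 called and Cdx2 not tested. The cause of these changes was not tested, except where the filter is named. Without the low-count filter, edgeR adjusted p-values of Gata2 were far smaller at nearly the same change. In Pcl1-3 KO against WT the value was 1.45e-63, against 0.00782 with the filter. Why was not tested, so calls gained only in that fit carry little weight.

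Leaving out 1 library gave 2 to 3 calls in Suz12 KO, 1 to 2 in Pcl1-3 KO, 1 to 2 in Pcl1-3 + Epop KO, 0 to 1 in Jarid2 + Aebp2 KO, 1 to 2 in Pcl1-3 + Jarid2 KO, 1 to 2 in Pcl1-3 + Jarid2 + Aebp2 KO and 6 to 6 in the full non-core knockout, all against WT. Between knockouts it gave 5 to 6 for the full non-core knockout against Suz12 KO, 0 to 1 for Pcl1-3 + Jarid2 KO against Pcl1-3 KO, 0 to 0 for the further loss of AEBP2, 5 to 5 for the further loss of EPOP, 0 to 1 for the loss of PCL1-3 in Jarid2 + Aebp2 KO and 0 to 1 for the interaction. Counts of 10 reads or fewer limit Elf5, and Cdx2 and Gata3 outside the genotypes where they were high. For peaks, counting only those of at least 1 kb left SUZ12 at 4 genes (without Krt7) and PCL2 at 5 (without Krt8 and Krt18), and counting only peaks near a gene end left PCL2 at 6 (without Tfap2c).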

Other observations

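Correlations of Krt8 with Gata2 differed by how libraries were taken: with each library taken relative to its genotype mean, their log2 CPM had a Pearson r of -0.79 over 24 libraries, a description only, since libraries share genotypes and replicate numbers. Over the same 24 libraries without that step it was 0.26, without the full non-core knockout (21 libraries) -0.06, and over the 8 genotype means 0.55. Tfap2c and Krt8 had -0.78 relative to genotype means, -0.77 over 24 libraries and -0.29 over 21. Gata2 and Tfap2c had 0.75, 0.01 and 0.50 in the same order. In Pcl1-3 + Epop KO, for example, replicates 1, 2 and 3 had 12.9, 32.0 and 130 CPM of Gata2 and 68.2, 51.2 and 27.005 CPM of Krt8. Krt7 in the same libraries was at 3.96, 10.5 and 25.0 CPM.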
